A study of Rattus norvegicus with 11 samples.

Results

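The antioxidant genes described here are Sod1, Sod2, Sod3, Cat, Gpx1, Gpx3, Gpx4, Hmox1, Nqo1 and Txnip, taken from the deposited table by matching the row name to each symbol. All 10 were found among 17257 rows, and all 10 were among the 13346 genes with a mean above 0. The study measured total RNA of ventricular heart muscle cells from wild-type Sprague Dawley rats of 3 to 4 months. Hearts were perfused to free the cells, which stood in dishes for 45 minutes, received no treatment and were then frozen. The groups were 6 males and 5 females, given as biological replicates, and sex is the one difference the labels give. No group carried a transgene, a deletion or a drug.

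Heart muscle cells are dense with mitochondria, whose respiratory chain leaks superoxide. Superoxide dismutases turn superoxide into hydrogen peroxide, and catalase, the glutathione peroxidases and the peroxiredoxins then reduce the peroxide or the lipid peroxides that it forms. A further layer is switched on under stress by the transcription factor Nrf2, which its adaptor Keap1 otherwise holds for breakdown. All of the listed genes but Txnip encode enzymes, and Txnip encodes a protein that binds and blocks thioredoxin.

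Each sex has a mean normalized count from the authors, that is, gene counts divided by a size factor per library. Transcript length is not taken out of them, so levels were compared between the sexes within a gene and not between genes. The group means carry enough digits to work back to whole reads per library for some genes. This worked for Sod3, Hmox1 and Nqo1, and for those 3 genes the spread between libraries is shown directly. The libraries are known by sex and size factor, and carry the letters a to f in males and a to e in females in order of falling size factor. Size factors ran from 0.811 to 1.17 in males and from 0.972 to 1.14 in females. Each library held from 46139 to 65582 reads in the 4418 genes with low means that were recovered first.

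Myocyte markers were abundant in both sexes, with summed means of 2403192 in males and 2956797 in females over the 7 markers in the table. Of these, Myh6 and Ryr2 were called higher in females, and Ttn was not among the rows. Over all genes tested, 6.71% were called higher and 7.76% lower in females, at an adjusted p under 0.05. Markers of other cell types were detected too. By the authors' deposited table, a total of 3 of 7 tested fibroblast markers were lower in females (Col1a1, Col3a1 and Postn), with summed means of 18075 and 8968, and Col1a2 was listed at 0. Without a call, Dcn, Lum and Pdgfra had lower means in females, and Tcf21 had a higher mean (28.9 in males and 32.6 in females). Of 8 endothelial markers, Vwf was higher in females, and no marker of 8 for macrophages, 8 for smooth muscle or 7 for red blood cells was called. At an unadjusted p under 0.05 these 3 lists had 0, 2 and 0 genes. Their median log2 fold changes were -0.32, 0.30 and 0.74, and all 8 macrophage markers had lower means in females. The part of these cells in the results below was not tested. In such bulk samples, fewer cells of a type and less RNA per cell cannot be told apart.

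Of the 10 antioxidant genes, Sod2 was lower and Gpx4 was higher in female myocytes, and the other members did not pass the test. The test was the authors' DESeq comparison, with an adjusted p under 0.05 over all genes taken as called. By that rule 14.5% of all genes tested were called, 6.71% higher in females and 7.76% lower. The members had 1 gene called in each direction among 10, a share close to that background. Their median log2 fold change (female over male) was 0.066, beside -0.0099 over all genes tested.

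**Figure D1:**
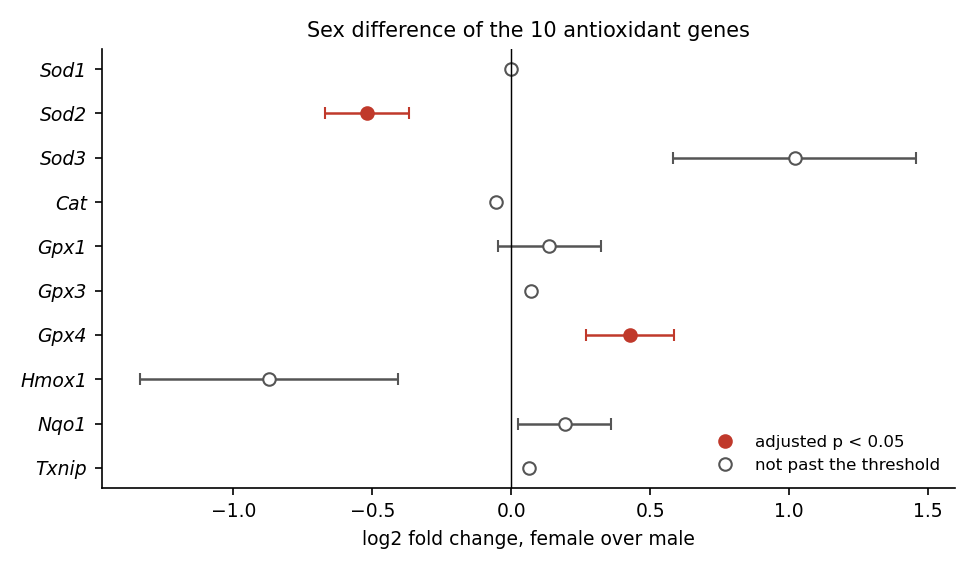
Log2 fold change (female over male, horizontal axis) of each of the 10 antioxidant genes from the authors' deposited table. Filled points passed an adjusted p of 0.05 and open points did not. Bars span 1 standard error to each side, exact for Sod3, Hmox1 and Nqo1 and the upper bound for Sod2, Gpx1 and Gpx4. No bar is drawn where no upper bound was found. Sod2 lies at -0.52 and Gpx4 at 0.43, while Sod3 and Hmox1 lie farther from 0 with wider bars.

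Sod2 encodes the manganese superoxide dismutase of the mitochondrial matrix. The authors' deposited table gave it a normalized count of 10453 in males against 7291 in females, a fold of 0.697. The log2 fold change was -0.52, with a DESeq adjusted p of 0.00553. Reads per library were not recovered at this level, so the overlap of the sexes could not be shown. The deposited p itself limits the spread. DESeq uses the larger of a gene's own variance and a curve fitted over all genes, and for Sod2 this allows a coefficient of variation between libraries of at most 17.2%. The standard error of the log2 fold change then lies between 0.13 and 0.15, and the difference is more than 3 times as large. The direction held under each of 3 other scalings.

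The promoters of Sod2 and Gpx4 are shown because these are the members that were called, in opposite directions. The RefSeq table for the build GRCr8 held an entry for 7 of the 10 members. The 250 bases before the start site of Sod2 lie at chr1:50050169-50050418 on the minus strand. Those before the first of 3 start sites of Gpx4 lie at chr7:10303630-10303879, and those before its start 3 at chr7:10303160-10303409, both on the minus strand. Capitals mark every match to the core of the antioxidant response element, to which Nrf2 binds (TGACNNNGC), and to the GC box (GGGCGG), each read on both strands.
Sod2: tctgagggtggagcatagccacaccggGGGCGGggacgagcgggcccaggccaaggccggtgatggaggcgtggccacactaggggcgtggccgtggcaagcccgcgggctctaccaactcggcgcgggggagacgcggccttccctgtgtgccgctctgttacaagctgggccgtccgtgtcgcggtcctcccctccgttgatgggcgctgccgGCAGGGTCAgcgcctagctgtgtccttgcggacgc
Gpx4 start 1: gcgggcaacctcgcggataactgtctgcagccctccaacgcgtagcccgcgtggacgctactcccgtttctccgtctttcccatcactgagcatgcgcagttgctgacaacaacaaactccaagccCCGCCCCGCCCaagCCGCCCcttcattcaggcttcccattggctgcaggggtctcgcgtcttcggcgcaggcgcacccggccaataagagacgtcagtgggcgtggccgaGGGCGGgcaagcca
Gpx4 start 3: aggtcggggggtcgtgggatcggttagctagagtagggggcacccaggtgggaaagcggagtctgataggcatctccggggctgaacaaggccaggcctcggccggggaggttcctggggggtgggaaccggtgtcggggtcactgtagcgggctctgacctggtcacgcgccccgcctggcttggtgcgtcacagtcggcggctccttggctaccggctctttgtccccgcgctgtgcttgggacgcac

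The Sod2 window held 1 antioxidant response core, whose first base lies 35 bases before the start, and 1 GC box that begins 223 bases before it. The first Gpx4 window held 0 cores and 4 GC boxes, some of which overlap, and the window of start 3 held 0 of each. Among 33469 RefSeq promoter windows of this length, 10.1% held the core and 30.5% held the GC box. Of the 7 members with an entry, only Sod2 had the core in its first window, and 6 had a GC box. The Nqo1 window had 0 cores. Such a match describes letters in a short window, and binding was not measured.

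Sod1, the copper and zinc dismutase of the cytosol, had nearly equal group means. They were 10377 in males and 10368 in females per the authors' deposited table, with a log2 fold change of -0.0012 and a DESeq adjusted p of 1. By the fitted curve that DESeq uses, the standard error was at least 0.13. The spread between libraries could not be bounded from above, so how much larger the error of this near-zero difference is remains unknown.

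Sod3 encodes the dismutase that cells secrete and that binds to the extracellular matrix, and it varied widely between libraries. Its normalized counts in males a to f were 116, 76.9, 79.0, 91.9, 155 and 284, and in females a to e they were 166, 129, 333, 324 and 403. Females c, d and e lay above every male, females a and b lay within the male range, and male f lay above both of those. The sexes thus overlapped, although all 5 females were above the male median of 104. The mean was 134 ± 79.0 in males (SD, n = 6) and 271 ± 118 in females (SD, n = 5), a fold of 2.03. These values rest on 750 male and 1386 female reads, so counting error was small beside the spread between animals.

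The difference in Sod3 did not pass the test across all genes. In the authors' deposited table the log2 fold change was 1.02 with a DESeq adjusted p of 0.0829, and its standard error from the recovered reads was 0.44. On log2 of the normalized count plus 1 the difference was 1.05, with an exact permutation p of 0.0476 (two-sided, 1 of 3 members so tested, unadjusted). By limma over the 1647 genes with recovered reads, of which 0.121% were called, the adjusted p of Sod3 was 0.168. With 1 library left out at a time, the exact p ranged from 0.0159 without male f to 0.105 without female e. It was under 0.05 in 3 of 11 cases, those without male f, female a or female b. Smooth muscle cells of the vessel wall are known as a source of the secreted enzyme. The 4 smooth muscle markers with recovered reads summed to between 347 and 711 in males and between 499 and 1268 in females. The sums were 659.7, 469.8, 347, 711, 544 and 479.5 in males a to f, and 512, 507, 1268, 583 and 499 in females a to e. Rgs5, Myh11, Pdgfrb and Cspg4 are not in these sums. Of all 8 markers only Rgs5 had a lower mean in females, with 2647 in males and 1924 in females. Over all 8 markers the summed group means were 5682 in males and 5906 in females. The part of smooth muscle cells in the difference of Sod3 was not tested.

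Catalase, which breaks down hydrogen peroxide mainly in peroxisomes, averaged 8206 normalized counts in males and 7899 in females per the authors' deposited table (log2 fold change -0.055, DESeq adjusted p 0.901). Gpx1, the selenium enzyme that reduces hydrogen peroxide with glutathione in cytosol and mitochondria, had means of 16774 and 18449 there (log2 fold change 0.14, DESeq adjusted p 0.563). For Gpx1 the standard error lay between 0.13 and 0.19, so the difference was about as large as its error. Gpx3, the form secreted into plasma, had means of 1188 and 1247 per the authors' deposited table, with a log2 fold change of 0.070 and a DESeq adjusted p of 0.940. No difference between the sexes was detectable in these 3 genes, and only for Gpx1 could the error be bounded from above.

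Gpx4 reduces peroxides of membrane phospholipids and is known as the guard against ferroptosis, the cell death that follows their build-up. The authors' deposited table gave it 12787 normalized counts in males against 17195 in females, a fold of 1.34. The log2 fold change was 0.43 with a DESeq adjusted p of 0.0229, and the standard error lay between 0.13 and 0.16. The coefficient of variation was at most 18.2%. RefSeq lists 4 pseudogenes of Gpx4 and 1 of Sod2, and none had a row of its own, so whether reads of these copies were counted with the genes is unknown. Gpx4 kept its direction under the other scalings, and it missed a stricter adjusted p threshold of 0.01, which Sod2 passed.

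Hmox1, the inducible enzyme that opens the haem ring to biliverdin, iron and carbon monoxide, was uneven among males. Its normalized counts in males a to f were 1393, 487, 486, 1090.4, 395 and 627, and in females a to e they were 349, 623, 389, 450.4 and 231. Males a and d stood above all other libraries. Females a, c and e lay below every male, and females b and d lay within the male range. The mean was 747 ± 402 in males (SD, n = 6) and 408 ± 144 in females (SD, n = 5).

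This difference in Hmox1 did not pass either test. In the authors' deposited table the log2 fold change was -0.87 and the DESeq adjusted p was 0.205, with a standard error of 0.46 from the recovered reads. The exact permutation test on the log scale gave a difference of -0.78 with p = 0.0693 (two-sided). The exact p fell to 0.0190 without female b and rose to 0.152 without female e. It was under 0.05 in 2 of 11 such cases, the other being without male e. Macrophages also make this enzyme when they take up red cells. The summed normalized count of all 8 macrophage markers ran from 812 to 1462 in males and from 505 to 1104 in females. In males a to f it was 1168, 867, 812, 1228, 1462 and 1084, and in females a to e it was 505, 1104, 959, 932 and 888. The part of macrophages in the difference of Hmox1 was not tested.

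Nqo1 reduces quinones and is a usual marker of Nrf2 activity. Its normalized counts in males a to f were 636, 675, 679.8, 748, 694 and 852, and in females a to e they were 814, 620.0, 1080.3, 941 and 625. Of the females, 2 lay above every male and 2 below every male. The mean was 714 ± 76.5 in males (SD, n = 6) and 816 ± 200.3 in females (SD, n = 5), with a DESeq adjusted p of 0.487 per the authors' deposited table. The difference on the log scale was 0.16, with an exact permutation p of 0.342 (two-sided).

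**Figure D2:**
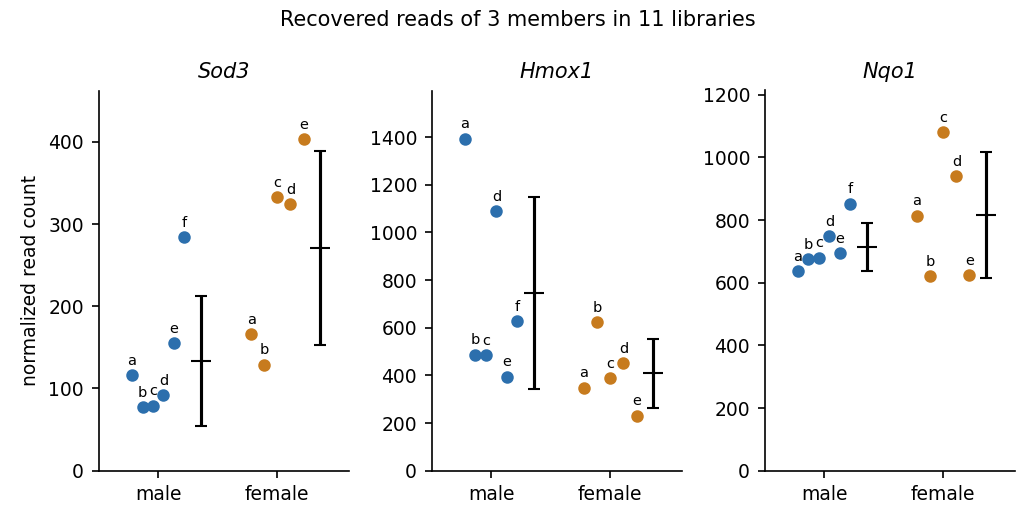
Normalized read counts (vertical axes, from 0) of Sod3, Hmox1 and Nqo1 in each of the 6 male and 5 female libraries, lettered by falling size factor. Bars give the mean and 1 SD to each side. Females c, d and e are above every male in Sod3, males a and d are above every other library in Hmox1, and the females bracket the males in Nqo1.

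Txnip, which blocks thioredoxin and curbs glucose uptake as a member of the arrestin family, averaged 34049 normalized counts in males and 35545 in females per the authors' deposited table. Its log2 fold change was 0.062 with a DESeq adjusted p of 0.926, and its spread was not bounded from above. The signs of the smallest differences depend on the scaling. Sod1 turned positive when all genes were centred on their median, Sod1 and Cat turned positive when all rows were scaled to equal sums (a shift of 0.15 on the log2 scale), and Txnip turned negative with sums over rows that carry a symbol. None of these genes was called.

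Across the 11 libraries the 3 members with recovered reads correlated in both directions. Pearson's r of log2 normalized counts was -0.53 for Sod3 with Hmox1, 0.52 for Sod3 with Nqo1 and -0.18 for Hmox1 with Nqo1. These coefficients describe 11 points that share sex and size factors. Among the 1647 genes with recovered reads and means no lower than 10, genes most like Sod3 included Tigd5 (r = 0.93) and Mapk11 (0.90), the stress kinase p38 beta. Those most like Hmox1 were Kntc1 (r = 0.88), of the spindle checkpoint, Ltbp2 (0.84), a matrix protein, and Exnef (0.81). Those most like Nqo1 were Ndufa4l2 (r = 0.84), Cbx2 (0.83) and Gsta1 (0.81), a glutathione transferase that is a known Nrf2 target. None of the genes named for their likeness passed an adjusted p of 0.05 per the authors' deposited table. Most genes that could be compared had low means. Mapk11 averaged 5.91 normalized counts in males and 15.1 in females, and Exnef averaged 15.6 and 7.37, so their coefficients rest on few reads.

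The genes that work beside the members were read from 11 lists. Of 128 companion genes tested per the authors' deposited table, 11 were higher and 7 lower in females, and their median log2 fold change was 0.0098. The same table has 6.71% of all genes higher and 7.76% lower.

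The glutathione S-transferases, which attach glutathione to lipid aldehydes and foreign compounds, had the most calls of these lists and the most genes tested. Of 18 tested, 4 were higher in females and 0 lower, with a median log2 fold change of 0.28. Over all genes tested, 6.71% were called higher and 7.76% lower. The authors' deposited table had Gstm2 at 5956 normalized counts in males and 9712 in females, with a log2 fold change of 0.71 and a DESeq adjusted p of 0.000794. Gstm1 had a log2 fold change of 0.65 (DESeq adjusted p 0.00504), Gstz1, an enzyme of tyrosine breakdown, one of 0.76 (0.0101), and Gstp1 one of 0.72 (0.0127) per the authors' deposited table. Gstm1 and Gstm2 are close paralogs, so the authors' counting could have divided reads between them. Gsta2 and Gstm3 were listed at 0.

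The other peroxide-removing families had no call. Of 3 further glutathione peroxidases tested, Gpx2 and Gpx7 had the smallest p-values, with DESeq adjusted p of 0.676 and 0.714 per the authors' deposited table. Of 7 genes for the peroxiredoxins and their repair enzyme Srxn1, 0 were called. At an unadjusted DESeq p under 0.05 the count was 0 in both lists. Prdx2 had means of 10771 and 12431 and a DESeq adjusted p of 0.259 per the authors' deposited table, and Prdx1 had one of 0.435.

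Of 13 genes of the thioredoxin system tested, 1 was called higher and 1 lower in females, a share near the 14.5% called over all genes, and the others did not pass. Txn2, the mitochondrial thioredoxin, averaged 3348 normalized counts in males and 4883 in females per the authors' deposited table, a log2 fold change of 0.54 and a DESeq adjusted p of 0.00602. Txnl1, a thioredoxin-like protein of the cytosol, had a log2 fold change of -0.43 with a DESeq adjusted p of 0.0224 there. Of these mitochondrial proteins, Sod2 was therefore called lower and Txn2 higher in females.

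In glutathione synthesis and NADPH supply, 1 of 17 genes was higher and 1 lower in females, beside 6.71% and 7.76% of all genes tested. Slc3a2, the heavy chain of the cystine and amino acid exchangers, had a log2 fold change of 0.62 with a DESeq adjusted p of 0.000794 per the authors' deposited table. Ggct, which splits gamma-glutamyl residues, had normalized counts of 447, 409, 430.3, 318, 383 and 430.2 in males a to f and of 239, 352, 201, 169.7 and 277 in females a to e. Of the females, 4 lay below every male, and only female b, above male d, overlapped with them. The means were 403 ± 47.1 (SD, n = 6) and 248 ± 70.9 (SD, n = 5), with a log2 fold change of -0.70 and a DESeq adjusted p of 0.0062 per the authors' deposited table.

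Of the regulators of Nrf2, 2 of 10 tested were higher in females and 1 was lower, beside 6.71% and 7.76% of all genes tested. Keap1, the adaptor that presents Nrf2 for breakdown, had a log2 fold change of 0.45, and Sqstm1, the autophagy receptor p62 that binds Keap1, had one of 0.67. Cul3, the scaffold of the ligase that Keap1 serves, had one of -0.73. The DESeq adjusted p-values were 0.0259, 0.0017 and 0.0135 per the authors' deposited table. Nfe2l2, the gene of Nrf2 itself, averaged 3385 normalized counts in males and 2777 in females there, with a DESeq adjusted p of 0.157. It is named here beside the rule because its protein acts on Hmox1 and Nqo1, which were not called.

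Over all genes tested, 14.5% were called, which is the share to set beside the lists here. Among 11 partners of haem breakdown and quinone reduction, only Por was called. This reductase feeds electrons to cytochrome P450 enzymes and to haem oxygenase, and its log2 fold change was 0.87 with a DESeq adjusted p of 1.08e-06 per the authors' deposited table. Of 14 genes that supply copper or selenium, only Pstk, a kinase in the making of selenocysteine, was called, with a log2 fold change of -0.61 and a DESeq adjusted p of 0.0181 there. The selenium enzymes Gpx1, Gpx3 and Gpx4 had the values given above, of which only Gpx4 was called, and it was higher. Of 6 relatives and sugar sensors of Txnip, Arrdc3, an arrestin domain protein, was lower in females, with a log2 fold change of -0.86 and a DESeq adjusted p of 0.00207 per the authors' deposited table.

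Of 16 enzymes that produce oxidants, only Nox4 was called, beside 14.5% of all genes tested. Nox4, an NADPH oxidase that makes hydrogen peroxide without a cytosolic activator, had normalized counts of 297, 177, 182, 137, 126 and 295 in males a to f. In females a to e the counts were 74.0, 57.9, 92.8, 146 and 110.1. Females a, b, c and e lay below every male, and female d lay above males d and e. The means were 202 ± 75.6 (SD, n = 6) and 96.2 ± 34.1 (SD, n = 5), with a log2 fold change of -1.07 and a DESeq adjusted p of 0.0209 per the authors' deposited table. Fibroblasts express Nox4 as well, and 3 of the 7 fibroblast markers tested were called lower in females, beside 7.76% of all genes tested. The 3 fibroblast markers with recovered reads summed to between 343 and 679.8 in males and between 242 and 550.2 in females. Col1a1 and Col3a1 are not in that sum. Of the 3, Pdgfra and Tcf21 overlapped between the sexes. Postn did not, with 70.6 to 133 in males and 18.5 to 60.7 in females, beside 1.88% of all 1647 recovered genes without overlap. Most of those genes have male means up to 60, below the 108 of Postn, so that share is not taken at its level. The part of fibroblasts in the difference of Nox4 was not tested.

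**Figure D3:**
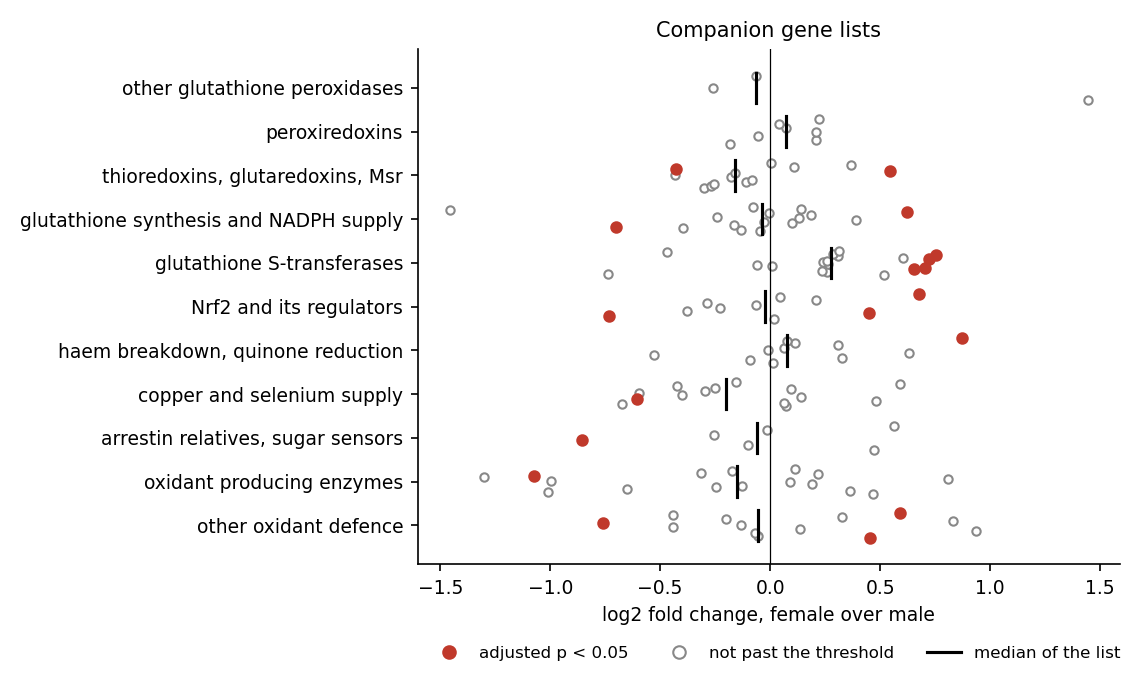
Log2 fold change (female over male, horizontal axis) of each companion gene tested, by list, from the authors' deposited table. Filled points passed an adjusted p of 0.05, open points did not, and the black bar is the median of the list. All 4 called glutathione S-transferases lie to the right of 0, and Nox4 is the lone called gene among the oxidant producing enzymes, at -1.07.

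Of 13 other defence genes tested, 2 were higher and 1 lower in females, beside 6.71% and 7.76% of all genes tested. Aldh2, the mitochondrial enzyme that clears lipid aldehydes, had a log2 fold change of 0.46 with a DESeq adjusted p of 0.0136 per the authors' deposited table. Ucp3, an uncoupling protein of the inner mitochondrial membrane, had one of 0.59 (DESeq adjusted p 0.0368), and Pon2, an intracellular lactonase, one of -0.76 (DESeq adjusted p 0.00114) per the authors' deposited table.

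Reads were recovered for 54 companion genes with means no lower than 10, and in 2 of them the sexes did not overlap, beside 1.88% of all 1647 such genes. Both are named after their values were seen. Sepsecs, which completes selenocysteine on its transfer RNA, ran from 306 to 455 normalized counts in males and from 225 to 295 in females, all of which were lower. Pon3, a lactonase carried on lipoproteins, ran from 11.4 to 56.7 in males and from 63.2 to 78.4 in females, all of which were higher. Among the 1647 genes, 0.911% lay lower in every female than in any male. Most of the 1647 have means up to 60 in males and 100 in females, where all genes were searched. Only members and listed genes were searched above that, and Sepsecs is 1 of these. The shares of 1.88% and 0.911% are thus not taken at like levels, and the limits differ between the sexes. Neither Sepsecs nor Pon3 passed the test across all genes, with DESeq adjusted p of 0.103 and 0.108 per the authors' deposited table.

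**Figure D4:**
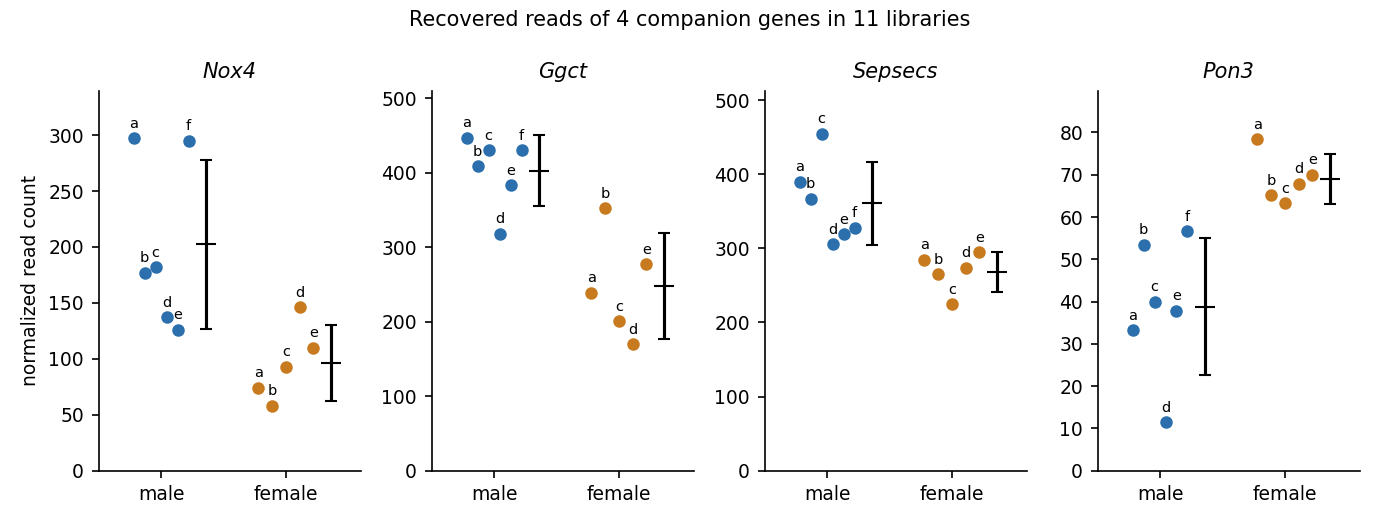
Normalized read counts (vertical axes, from 0) of Nox4, Ggct, Sepsecs and Pon3 in each of the 6 male and 5 female libraries, lettered by falling size factor, with the mean and 1 SD to each side. In Nox4 and Ggct 4 females are below every male, and in Sepsecs and Pon3 the sexes do not overlap.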

How the data were processed

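Per the labels, samples had an RNA integrity number no lower than 9, and 650 ng went into stranded paired-end libraries after removal of ribosomal RNA. The submitters' processing notes name FastQC, Trimmomatic 0.32, TopHat2 2.0.12, HTSeq 0.6.1, DESeq and the build rn6. Settings, annotation and use of strand in counting are not given in the sources used here. Per the file headers, the authors deposited for each gene a mean normalized signal (gene counts over size factors) for each group, a fold change as a linear ratio, its log2 value, and p-values raw and adjusted. The overall mean equals 6 parts of the first group and 5 of the second in all 13346 genes above 0, so the first was read as male.

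The members and lists were chosen with earlier results of these data known. Named genes were all members, every called gene of a companion list (at most 4, by smallest p), the 2 smallest p where none was called, and 3 recovered genes most like each recovered member, of which 1 is not reported here.

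Each group mean is a sum of whole reads over size factors. All 3949 male means up to 60 and 4487 female means up to 100 had exactly 1 solution in whole reads. For all 4418 genes solved in both sexes, the p of the authors' test rebuilt from these reads matched the deposited p within a relative 1e-10. The search then took members that it could reach, and other listed genes with means up to 800. Their reads were accepted where 1 candidate matched the deposited p within a relative 1e-11 and no other came within 1e-06. That step, and its limit, were chosen after the data were seen. Gpx3 and members with larger means were not recovered. The exact permutation test used log2 of the normalized count plus a pseudocount of 1 over 462 regroupings. Its smallest possible p in a single direction was 0.00216, and the two-sided p doubles the smaller p of the directions. Rows with an Ensembl identifier alone held 57.5% of summed male and 50.7% of summed female means. The scripts were tested on simulated data and used Python 3.11.15, numpy 2.4.6, scipy 1.17.1, numba 0.67.0, R 4.3.3 and limma 3.58.1.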

Additional observations from a re-analysis of the deposited data

How the results depend on the processing

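Of the 10 members, 2 were called at an adjusted p of 0.05. At 0.01 the count was 1, Sod2 alone, and at 0.1 it was 3, with Sod3 added. Adjusted over genes with a mean of at least 10 or at least 50, the count was 2, and Sod3 had adjusted p-values of 0.0659 and 0.0590. The Sod3 difference of 1.05 had a limma p of 0.00378 before adjustment and of 0.168 after adjustment over genes with recovered reads. Its exact permutation p was not adjusted, so it is not comparable with the adjusted limma p. With each library left out in turn, the difference on the log2 scale ran from 0.875 to 1.30 for Sod3 and from -0.954 to -0.572 for Hmox1. For Nqo1 it ran from 0.054 to 0.254. Other pseudocounts and a scaling to the total of recovered reads changed none of these 3 calls. Under the 3 other scalings and a pseudocount of 1 on the group means, no p was recomputed for the members. The log2 fold change ran from -0.582 to -0.371 for Sod2 and from 0.365 to 0.576 for Gpx4, while Sod1, Cat and Txnip changed sign under at least 1 scaling. For 7 of the 10 members only group means were available, which limits what can be said of their spread. No paired analysis was possible because the recovered libraries carry no replicate number.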
